A study of Mus musculus with 3530 samples.

Results

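GABA is the main fast inhibitory transmitter of the cortex, and the genes described here make it, load it into vesicles, clear it, break it down and sense it. The list holds 28 mouse genes chosen by function: synthesis (Gad1, Gad2), vesicular loading (Slc32a1), uptake (Slc6a11), breakdown (Abat, Aldh5a1), ionotropic receptor subunits (Gabra2, Gabra3, Gabra4, Gabra5, Gabrb1, Gabrb2, Gabrg1, Gabrg3, Gabrd, Gabre, Gabrq), the metabotropic receptor and its partners (Gabbr1, Gabbr2, Kctd8, Kctd12, Kctd16), the scaffold Gphn, the chloride cotransporters Slc12a2 and Slc12a5, and the family of Gabarap, Gabarapl1 and Gabarapl2. Membership follows from the names of the genes and uses no measured value. Of these, 27 are rows among the 23355 of the count table. Gabre has no row, so its level was not analysed, and it enters only the promoter windows below.

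GABA is formed from glutamate by glutamic acid decarboxylase, which comes as a constitutively active enzyme (Gad1) and a form more closely tied to synaptic vesicles (Gad2). Ionotropic GABA-A receptors are pentamers whose alpha subunit sets much of their kinetics and place: alpha5 and delta subunits are typical of extrasynaptic receptors that carry tonic inhibition. Metabotropic GABA-B receptors are obligate dimers of the Gabbr1 and Gabbr2 products, and Kctd proteins bind them and shape how fast their response fades. The sign of the GABA-A current depends on intracellular chloride, which Slc12a5 extrudes and Slc12a2 imports.

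The data are Smart-seq2 libraries (full-length cDNA, one library per cell) from 3530 single cells of the medial prefrontal cortex of TRAP2;Ai14 mice, in which Fos-driven, tamoxifen-dependent recombination leaves recently active cells permanently red with tdTomato. All animals carried these alleles. The mice belonged to a contextual fear experiment with 4 conditions, given as Fear-Recall (5 animals, 1342 cells), Fear-Only (5 animals, 841 cells), Context-Only (5 animals, 912 cells) and Homecage (5 animals, 435 cells). The labels give neither age, sex nor the schedule of training and tamoxifen, and they name a sorting gate for part of the cells: 1806 were pos, 779 were neg, 96 from one Homecage animal were marked with both words, and 849 had none. The labels do not say what pos and neg were set on, so both words are used here as names only. Animals, not cells, were the replicates, although the labels do not say which animals shared a litter, a day or a cage.

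Cells held 100002 to 6840943 counts each (median 813078) and 527 to 10838 detected genes. Clustering without the listed genes gave 20 clusters, 11 of them excitatory-neuron-like, with 2329 cells in all, and 9 inhibitory-neuron-like, with 1201 cells. Of these, 1 excitatory cluster of 172 cells had no clear subclass. The pair of clusters with the fewest genes per cell held 349 cells. Their medians were 2491 and 4211 genes, against 5010 in the next cluster. Results are given without this pair where they change. Median genes per cell were 7256 in the excitatory and 5518 in the inhibitory class. Homecage animal 1 gave 1 cell and entered no sum.

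Because synthesis and vesicular loading define the GABAergic cell, the sequences just upstream of those start sites are shown, with that of Gabra5, whose class difference ran the other way. They come from the RefSeq promoter windows of GRCm38.p6, read 5′ to 3′ on the gene's strand and cut where the first annotated exon begins. Capitals mark exact matches, on either strand, to TATAAA (the TATA box), CCAAT (the CCAAT box) or GGGCGG (the GC box). Gad1 (chr2:70561879-70562041, plus strand, inside the span that GENCODE gives the gene), Gad2 (chr2:22622077-22622204, plus strand), Slc32a1 (chr2:158610508-158610757, plus strand) and Gabra5 (chr7:57510060-57510309, minus strand) read as follows.
Gad1: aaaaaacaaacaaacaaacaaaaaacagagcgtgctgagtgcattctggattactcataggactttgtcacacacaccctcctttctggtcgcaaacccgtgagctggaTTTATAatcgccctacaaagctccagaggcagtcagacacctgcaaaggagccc
Gad2: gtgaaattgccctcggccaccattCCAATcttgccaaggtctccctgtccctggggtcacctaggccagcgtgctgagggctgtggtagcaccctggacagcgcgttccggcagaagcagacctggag
Slc32a1: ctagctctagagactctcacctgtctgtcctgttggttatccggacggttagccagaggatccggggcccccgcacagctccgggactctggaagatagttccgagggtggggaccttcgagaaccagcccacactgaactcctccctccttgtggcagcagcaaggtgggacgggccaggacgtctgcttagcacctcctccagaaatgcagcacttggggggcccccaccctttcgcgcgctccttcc
Gabra5: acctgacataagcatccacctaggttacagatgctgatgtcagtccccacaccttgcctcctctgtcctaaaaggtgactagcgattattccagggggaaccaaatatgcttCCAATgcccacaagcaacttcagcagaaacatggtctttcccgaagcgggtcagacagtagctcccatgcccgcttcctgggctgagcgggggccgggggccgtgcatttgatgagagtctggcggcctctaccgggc

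The 4 windows differ in these motifs. Gad1 holds 1 TATAAA match, written here as its reverse complement, and 1 GGGCGG match in the exonic end of its window, which is not printed. Gad2 and Gabra5 hold 1 CCAAT each, and the Slc32a1 window holds none of the 3 motifs. A RefSeq window was present for 24 of the 28 genes (29 windows of 250 bases). TATAAA occurred in 4 of these 29, in 3 genes (Gabra3, Gabrb2 and Gad1), against 12.4% of all 32851 windows. CCAAT occurred in 11 of 29 against 33.9% of all windows, and GGGCGG in 15 of 29 against 32.7%. The median GC content of the 29 windows was 60.4%, with a range of 35.6% to 80.8%, against 52.4% over all windows. These matches are of letters and say nothing of a factor at the site.

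The synthesis genes separated the 2 classes almost completely. Levels are given in CPM, a gene's counts scaled to a common total, over the summed cells of one class in one animal, with 19 animals for excitatory and 17 for inhibitory sums of at least 10 cells. Gad1 (chr2:70553072-70602014, plus strand, GRCm38) ran from 434 to 2965 in inhibitory sums (median 1193, mean 1322 ± 791 SD, n = 17) and from 0.00 to 3.77 in excitatory sums (median 0.01, mean 0.38 ± 0.93 SD, n = 19). Gad2 (chr2:22622205-22693874) ran from 359 to 1489 in inhibitory sums (median 698, mean 738 ± 264.2) and from 0.00 to 7.66 in excitatory sums (mean 0.63 ± 1.76). No animal's inhibitory level overlapped any excitatory level for either gene. Per kilobase of exon, the mean inhibitory level was 173.1 CPM for Gad1 and 126 CPM for Gad2. The table also holds rows for a Gad1 antisense transcript and a Gad1 pseudogene, and the sources used here do not give the strand setting of the counting, so a share of Gad1 counts could belong to either.

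Both decarboxylases were usually read in the same cell. Of 1201 inhibitory cells, 1130 (94.1%) had reads of Gad1 and Gad2, and 15 had neither. Of 2329 excitatory cells, 5 (0.215%) had both. When every cell was thinned to 100000 reads, the shares were 92.01% and 0.129%. The excitatory share measures what a class that should lack both genes shows in these libraries, at a similar depth (median 826077 counts per excitatory and 784244 per inhibitory cell).

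Slc32a1 encodes the vesicular GABA transporter (chr2:158610767-158615748, plus strand), and its mRNA was far scarcer than that of the enzymes. It ran from 7.49 to 46.5 CPM in inhibitory sums (median 18.5, mean 20.3 ± 9.85), and the highest excitatory sum was 0.15 CPM. Per kilobase its mean inhibitory level was 7.27 CPM, a small part of the Gad1 and Gad2 values on that scale. A read of Slc32a1 was found in 67.7% of inhibitory cells and, after thinning to 100000 reads, in 48.1%, against 0.04% of excitatory cells. Reads of all 3 genes together were present in 789 inhibitory cells (65.7%) and 3 excitatory cells.

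The breakdown and uptake genes behaved differently from each other. Abat, the GABA transaminase that starts GABA breakdown in mitochondria (chr16:8513429-8621568, plus strand), ran from 58.6 to 290 CPM in inhibitory sums (median 128, mean 139 ± 58.0) and from 10.6 to 61.2 CPM in excitatory sums (median 20.03, mean 22.1 ± 11.9). Aldh5a1, the next enzyme of the pathway, was at 14.01 ± 9.08 CPM in inhibitory and 10.7 ± 5.10 CPM in excitatory sums. Slc6a11, a GABA transporter best known from astrocytes, was at 6.84 ± 5.65 and 5.01 ± 2.02 CPM. The defining astrocyte markers Aqp4 and Gja1 were at 0.50 and 0.98 CPM in excitatory and 0.25 and 2.41 CPM in inhibitory sums. Over the whole astrocyte list of 8 genes, 2 (Slc1a2 and Apoe) were read in at least 25% of cells, and the summed level was 303 to 683 CPM in excitatory and 77.1 to 441 CPM in inhibitory sums. The part of astrocyte RNA in the Slc6a11 level was not tested.

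Among the ionotropic receptor subunits, most were read in both classes, and Gabra5 was the one with a large class difference. Gabra5 (alpha5, chr7:57407672-57510059, minus strand) ran from 34.95 to 298.9 CPM in excitatory sums (median 123.7, mean 118.97 ± 60.2) and from 0.71 to 78.1 CPM in inhibitory sums (median 20.2, mean 24.2 ± 20.02). Gabrb1 (beta1) was at 234 ± 36.8 CPM in excitatory and 138.4 ± 32.1 CPM in inhibitory sums, and was lower in the inhibitory sum of all 17 animals. Gabra4 (alpha4) was at 117.3 ± 48.6 and 74.4 ± 35.3 CPM, and was higher in the inhibitory sum in 1 of 17 animals. Gabra2 (alpha2) did not separate the classes, at 137 ± 51.97 CPM in excitatory and 130 ± 51.8 CPM in inhibitory sums. Per kilobase, the excitatory sums held Gabra5 at 40.004, Gabra4 at 19.3, Gabrd at 18.3, Gabra2 at 17.95, Gabrb1 at 16.9 and Gabra3 at 9.85 CPM. On the same scale the inhibitory sums held Gabra2 at 16.95, Gabrd at 13.6, Gabra4 at 12.2, Gabrb1 at 10.003, Gabra5 at 8.14 and Gabra3 at 6.88 CPM. So Gabra5 stood first among these subunits in the excitatory class and near the end in the inhibitory class.

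The remaining subunits were lower or divided within a class. Gabrd (delta, chr4:155384980-155398112, minus strand) was at 52.5 ± 20.5 CPM in excitatory sums (24.01 to 117.7, median 50.3) and 39.1 ± 23 CPM in inhibitory sums (5.06 to 83.6, median 31.5). After thinning, 55.3% of excitatory but 16.6% of inhibitory cells held a Gabrd read, so its inhibitory level came from fewer cells. Gabra3 (alpha3) was at 38.6 ± 14.4 and 26.98 ± 17.1 CPM, Gabrg3 (gamma3) at 34.8 ± 12.8 and 47.1 ± 13.4 CPM, and Gabrb2 (beta2) at 14.7 ± 6.31 and 17.8 ± 9.95 CPM, excitatory first. Gabrg1 (gamma1) was at 1.64 ± 1.27 and 5.28 ± 5.64 CPM, and Gabrq (theta) at 0.30 ± 0.49 and 1.16 ± 2.40 CPM. Gabrq was close to the detection limit and supports no comparison.

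For GABA-B receptors, the subunits were read in both classes and the partners were higher in the inhibitory one. Gabbr1 was at 135 ± 18.1 CPM in excitatory and 126 ± 31.7 CPM in inhibitory sums, and Gabbr2 at 169.2 ± 51.8 and 113 ± 42.5 CPM. Kctd12 (chr14:102976581-102982637, minus strand), which speeds desensitization of the receptor, ran from 8.55 to 114 CPM in inhibitory sums (median 25.4, mean 35.1 ± 26.6) and from 0.52 to 12.1 CPM in excitatory sums (median 2.32, mean 2.66 ± 2.43). Kctd8 was at 23.01 ± 18.3 against 3.11 ± 2.86 CPM, and Kctd16 at 53.4 ± 31.8 against 18.9 ± 11.8 CPM, inhibitory first. Kctd16 was nevertheless read in 56.8% of excitatory and 59.8% of inhibitory cells. All 3 Kctd genes were higher in the inhibitory class in every animal, while Gabbr1 was higher there in 7 and Gabbr2 in 1 of 17.

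Mean levels of the scaffold, chloride transport and GABARAP family genes differed little between classes, though some small differences were shared by most animals. The inhibitory sum was higher in 15 of 17 animals for Gphn, 16 for Gabarap and for Gabarapl2, and 1 for Gabarapl1. For Slc12a5 and for Slc12a2 it was higher in 6 of 17. Gphn, which clusters GABA-A receptors at synapses, was at 33.4 ± 12.3 CPM in excitatory and 44.5 ± 15.3 CPM in inhibitory sums. Slc12a5, the chloride extruder of mature neurons, was at 154.3 ± 47.6 and 123.5 ± 29.1 CPM, and the importer Slc12a2 at 5.35 ± 3.68 and 5.65 ± 5.39 CPM. Per kilobase, Slc12a5 stood at 20.7 and 16.6 CPM against 0.49 and 0.52 CPM for Slc12a2. By animal, the inhibitory to excitatory log2 ratio of Slc12a2 spread from -2.72 to 4.03. Gabarapl1 was at 824 ± 117.6 and 741 ± 137 CPM, Gabarap at 251.8 ± 57.9 and 307 ± 66.0 CPM, and Gabarapl2 at 339 ± 95.5 and 405 ± 137.98 CPM. These 3 ubiquitin-like proteins also serve autophagy, and Gabarapl1 per kilobase, at 409 and 368 CPM, was the most abundant of the listed mRNAs in either class.

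**Figure D1:**
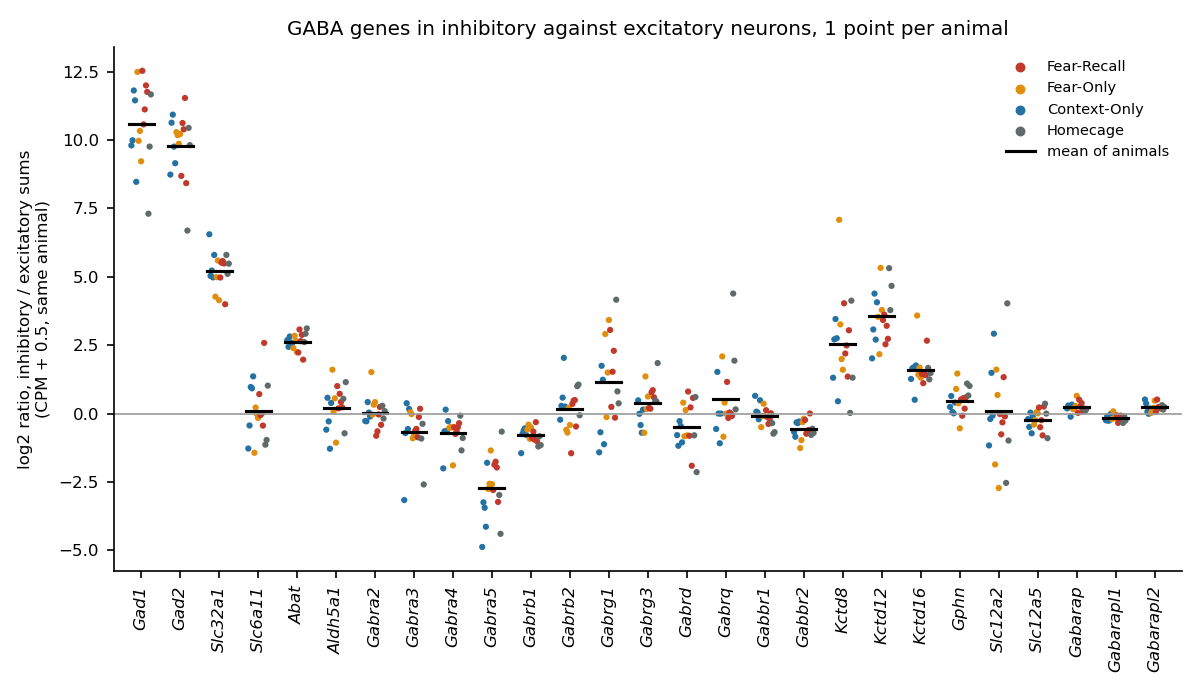
Log2 ratio of the level in inhibitory sums to that in excitatory sums of the same animal (y axis, CPM plus a pseudocount of 0.5) for 27 genes (x axis), one point per animal (17 animals, coloured by condition) with the mean. Gad1, Gad2 and Slc32a1 lie far above 0, with animals between 7.31 and 12.53, 6.69 and 11.54, and 3.998 and 6.56, while every Gabra5 point lies below 0, between -4.88 and -0.66.

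Within animals, the inhibitory to excitatory log2 ratio was 10.61 ± 1.45 for Gad1, 9.79 ± 1.16 for Gad2 and 5.21 ± 0.65 for Slc32a1 (mean ± SD, n = 17). It was 3.55 ± 0.99 for Kctd12, 2.63 ± 0.31 for Abat, 2.54 ± 1.65 for Kctd8 and 1.61 ± 0.66 for Kctd16. It was -2.73 ± 1.11 for Gabra5, -0.80 ± 0.30 for Gabrb1 and -0.70 ± 0.57 for Gabra4. A mean ratio of at least 1 on the log2 scale, in the same direction in every animal, was met by 7 of 26 genes above 1 CPM in the inhibitory direction and by Gabra5 alone in the excitatory one. Over all 13632 genes the same rule was met by 4.18% and 6.1%. The median ratio was 0.187 for the listed genes and -0.1 for all. The classes were made from these same cells, so the ratios describe them and were not tested.

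Inhibitory subclasses differed in how much Gad1 and Gad2 they held. Subclasses were named from their markers (Vip-like, Sst-like, Lamp5-like neurogliaform and Pvalb-like, from 718 cells in the first to 50 in the last), and levels are means over animals with at least 10 such cells. One further inhibitory cluster had Vip and Tac2 as well as Cxcl14 and Cnr1 among its 10 leading genes, fitted neither Vip-like nor Sncg-like cells alone, and is called Htr3a-led after its first gene. Gad2 was at 2059 ± 242.99 CPM in Lamp5-like sums (3 animals, 1842 to 2322) and at 720 ± 179.3 in Sst-like, 718 ± 223.5 in Htr3a-led and 648 ± 213.7 in Vip-like sums. The lowest Lamp5-like animal was above every animal of the other 3. Gad1 was at 2306 ± 583 CPM in Lamp5-like sums, 1182 ± 709 in Vip-like, 1043 ± 295 in Htr3a-led and 672 ± 488 in Sst-like sums, and here the ranges of Lamp5-like (1835 to 2957) and Vip-like sums (469 to 3193) overlapped. Slc32a1 varied little, from 18.4 CPM in Htr3a-led to 24.6 CPM in Lamp5-like sums. In the 50 Pvalb-like cells, of which no animal had 10, pooled levels were 1637 CPM for Gad1, 307 for Gad2 and 26.97 for Slc32a1, so Gad2 was below the mean of each other inhibitory subclass there. All clusters come from the same cells as these values, so the order of subclasses is a description.

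Abat followed GABAergic identity only in part. It was at 202.7 ± 75.2 CPM in Htr3a-led, 159.2 ± 54.1 in Lamp5-like, 147.5 ± 64.4 in Sst-like and 100.9 ± 38.6 in Vip-like sums. Among excitatory subclasses it was at 87.02 ± 39.7 CPM in layer 5-like sums (4 animals) and 51.9 ± 23.9 in near-projecting-like sums (11 animals), against 13.3 to 24.3 CPM in the other 4. The layer 5-like range (46.1 to 140.7) overlapped that of Vip-like sums (39.3 to 166.3). Slc6a11 was at 9.35 ± 9.63 CPM in Vip-like and 8.48 ± 3.37 CPM in layer 6 corticothalamic-like sums and at 0.98 CPM in upper-layer-like sums.

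Alpha subunits marked different excitatory layers. Gabra2 was at 374 ± 73.6 CPM in layer 5-like sums (276.1 to 438) and 365 ± 148.2 in upper-layer-like sums (4 animals each), against 35.9 ± 16.4 in layer 6 corticothalamic-like sums (17 animals, 11.7 to 71.2) and 48.8 ± 27.99 in near-projecting-like sums. Gabra5 showed nearly the reverse, with 194.5 ± 81.3 CPM in layer 6 corticothalamic-like sums (67.5 to 363) and 29.7 ± 8.33 in upper-layer-like sums, although layer 5-like sums held both genes (Gabra5 146.96 ± 12.9). The Gabra2 ranges of layer 5-like and corticothalamic-like sums did not overlap, and neither did the Gabra5 ranges of corticothalamic-like and upper-layer-like sums. Gabra4 was at 151.6 and 146.7 CPM in upper-layer-like and middle-layer-like sums and Gabra3 at 52.7 CPM in layer 6 intratelencephalic-like sums, both within the spread of other excitatory subclasses. Gabrb1 was at 323 ± 45.6 CPM in corticothalamic-like sums and 175.9 ± 26.7 in middle-layer-like sums.

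Gabrd was uneven across subclasses. It was at 156.2 ± 58.5 CPM in upper-layer-like sums (111.9 to 242) and 152.4 ± 75.3 in Lamp5-like sums (96.5 to 238), against 10.5 ± 10.1 in Vip-like and 2.62 ± 3.98 in Htr3a-led sums. The other excitatory subclasses lay between, from 24.1 CPM in near-projecting-like to 73.5 CPM in layer 6 intratelencephalic-like sums. The 50 Pvalb-like cells held the most, 394 CPM when pooled, with a read in 100% of them. Sst-like sums spread from 5.87 to 144.1 CPM. Lamp5-like sums also led in Gabrb2, at 56.3 ± 18.01 CPM against at most 19.3 CPM in every other subclass with sums. Gabra5 among inhibitory subclasses was at 81.8 ± 58.8 CPM in Lamp5-like, 43.5 ± 64.2 in Htr3a-led, 26.0 ± 24.5 in Sst-like and 12.2 ± 11 in Vip-like sums, with SDs too large to order them. Gabrg1, at 25.5 ± 26.2 CPM in Sst-like sums and at most 6.89 elsewhere, ranged from 0.46 to 79.7 within the Sst-like animals. Gabrg3 was at 91.9 ± 68.7 CPM in near-projecting-like sums.

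GABA-B genes differed widely between subclasses. Gabbr2 was at 6.76 ± 7.63 CPM in near-projecting-like sums (11 animals, 0.00 to 26.1), while the other excitatory subclasses lay between 86 ± 23.7 (layer 5-like) and 187.2 ± 36.7 (layer 6 intratelencephalic-like), and the lowest layer 5-like animal was at 63.8 CPM. Gabbr1, its obligate partner, was at 107.8 CPM in the same near-projecting-like sums and reached 172 CPM in upper-layer-like sums. Lamp5-like sums held the most Gabbr2, at 284.3 ± 47.7 CPM. The Kctd partners were spread unevenly. Kctd8 was at 89.4 ± 43.2 CPM in Sst-like sums (27.2 to 172.7), 10.4 ± 7.91 in corticothalamic-like sums and at most 4.57 in the others, apart from 43.96 CPM in the pooled Pvalb-like cells. Kctd12 was at 76.7 ± 67.7 CPM in Htr3a-led sums (19.3 to 231), 31.9 ± 22.05 in Vip-like sums and 7.66 in Sst-like sums. Kctd16 was at 66.9 ± 29.99, 62.9 ± 35.1 and 45.1 ± 26.1 CPM in Htr3a-led, Lamp5-like and Vip-like sums and at 12.95 ± 9.02 CPM in Sst-like sums.

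**Figure D2:**
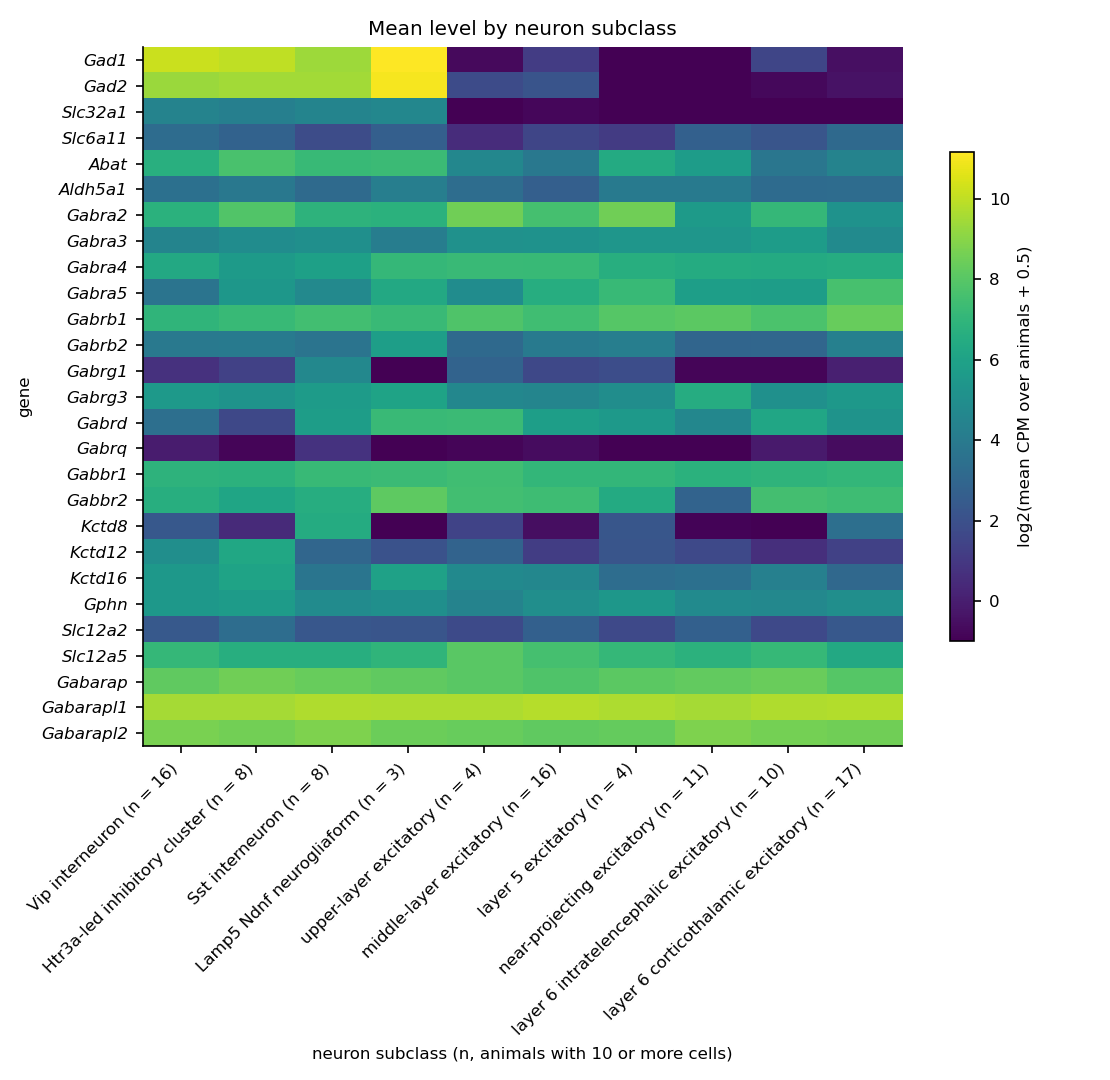
Mean level over animals (colour, log2 of CPM plus 0.5) of each gene (rows) in 10 subclasses (columns, with the number of animals that had at least 10 cells). The synthesis genes are high in the inhibitory columns only, Gabbr2 is lower in the near-projecting-like column than in the others (6.76 CPM), and Kctd8 stands out in the Sst-like column (89.4 CPM).

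Slc12a5 also differed among excitatory subclasses. It was at 265.99 ± 65.6 CPM in upper-layer-like sums (198.97 to 349), 189.5 ± 34.7 in middle-layer-like sums and 82.1 ± 15.6 in layer 6 corticothalamic-like sums (54.4 to 107), and the first and last ranges did not overlap. Slc12a2 stayed between 2.74 and 9.82 CPM in all 10 subclasses and Gphn between 21 and 51.1 CPM. Aldh5a1 ran from 5.87 to 17.9 CPM. Gabarap, Gabarapl1 and Gabarapl2 varied by less than about a factor of 2 among subclasses, for example Gabarapl1 from 731 CPM in Vip-like to 892 CPM in middle-layer-like sums.

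The gate comparison asked which genes differ between pos and neg cells of the same animal. It used the 8 animals that had both gates (Homecage 2, Fear-Recall 2 and 3, Context-Only 2 to 4, and Fear-Only 2 and 3), with 85 to 329 pos and 55 to 192 neg cells each, and levels scaled by TMM. Of 27 listed genes tested, 1 passed an adjusted p of 0.05 by edgeR's quasi-likelihood test, against 0.287% of all 17752 genes tested (51 genes). That gene was Gad2. At an unadjusted p of 0.05 the counts were 10 of 27 and 10.6% of all genes. The median log2 difference was 0.254 over the 27 and 0.021 over all genes, and 19 of the 27 were above 0.

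Gad2 was higher in the pos cells of every animal. From neg to pos it went from 82.3 to 325 CPM in Context-Only 2, 178.5 to 318 in Context-Only 3, 172 to 298.7 in Context-Only 4, 93.03 to 295 in Fear-Only 2, 164 to 401 in Fear-Only 3, 183.9 to 301 in Fear-Recall 2, 172 to 295 in Fear-Recall 3 and 216.2 to 431 in Homecage 2. All 8 pos values lay above all 8 neg values. Gad2 rose by 1.13 on the log2 scale (SE 0.16, adjusted p 0.0190 by edgeR, 8 of 8 animals). The adjusted p was above 0.05 when Fear-Only 3, Fear-Recall 2 or Fear-Recall 3 was left out (0.0706, 0.0659 and 0.0643 by edgeR, with log2 differences of 1.10, 1.19 and 1.18).

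Cell class moved with the gate. The share of inhibitory cells was 39.9% ± 5.58 in pos sums (31.3% to 48.2%) and 21.3% ± 4.51 in neg sums (12.9% to 27.6%), so the 2 gates did not overlap. Among inhibitory cells, Vip-like cells made up 68.3% of pos and 50.0% of neg, and Lamp5-like cells 5.46% and 15.2%. A read of the reporter was found in 68.3% of pos cells (23.5% to 96.9% by animal) and 9.63% of neg cells. In sums of all cells, a change in the share of a class and a change in mRNA per cell cannot be told apart, which holds for each value of this comparison.

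Slc32a1, Abat and Gad1, which also mark the inhibitory class, were each higher in the pos sums of 7 of 8 animals, without passing the test. Slc32a1 had a log2 difference of 1.45 (SE 0.39, adjusted p 0.216 by edgeR), at 11.3 ± 7.73 against 3.91 ± 1.88 CPM and higher in 7 of 8 animals. Abat differed by 0.63 (SE 0.17, adjusted p 0.213), at 64.04 ± 11.5 against 43.0 ± 14.1 CPM. Gad1 differed by 0.54 (SE 0.18, adjusted p 0.330), at 326 ± 129 against 231.7 ± 98.7 CPM and higher in 7 of 8 animals. The neg and pos values of Gad1 overlapped (95.1 to 398 and 187.1 to 545 CPM). The Kctd genes had log2 differences of 1.01 (Kctd8, SE 0.75), 0.48 (Kctd12, SE 0.55) and 0.18 (Kctd16, SE 0.22), with adjusted p of 0.658, 0.792 and 0.812 by edgeR.

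Several receptor subunits ran the other way. Gabrd was lower in the pos sum of all 8 animals, at 39.2 ± 6.02 CPM (32.5 to 51.98, median 38.4) against 59.3 ± 10.1 (43.7 to 73.3, median 59.9), with a log2 difference of -0.59 (SE 0.13, adjusted p 0.102 by edgeR). Gabra3 was also lower in all 8, at 22.5 ± 5.61 against 33.7 ± 6.20 CPM (-0.60, SE 0.14, adjusted p 0.128). Gabra5 was lower in 7 of 8, at 57.5 ± 23.2 against 89.95 ± 35.5 CPM (-0.61, SE 0.17, adjusted p 0.235). None of the 3 passed the threshold in this fit. DESeq2, run as an alternative on the same sums, called 6 of the 27 (627 genes in all): Gad2, Slc32a1 and Abat higher, with adjusted p of 7.26e-09, 0.00241 and 0.0172, and Gabrd, Gabra3 and Gabra5 lower, with 0.00290, 0.00384 and 0.0202. With each cell given equal weight, limma called 4 of the 27. By limma these were Gad2 (1.68, adjusted p 0.000664), Gad1 (1.55, adjusted p 0.00123) and Slc32a1 (0.53, adjusted p 0.0287), all higher in pos cells, and Gabrd (-1.13, adjusted p 0.0329), lower. Limma's values are differences in the mean log2 level of single cells. Their sizes are therefore not on the scale of the fold changes of sums.

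The rest lay closer to 0. Gabra2 differed by 0.32 (SE 0.13, adjusted p 0.401 by edgeR) and Gabarap by 0.19 (SE 0.08, 0.456), each higher in 7 of 8 animals, and Gabarapl2 by 0.27 (SE 0.11, 0.424). The log2 difference was -0.21 for Gabrb1 (SE 0.11), -0.20 for Gabra4 (SE 0.16), 0.25 for Gabrb2 (SE 0.18) and 0.26 for Slc12a5 (SE 0.17). It was 0.14 for Gabbr1 (SE 0.15), 0.14 for Gabbr2 (SE 0.10), 0.08 for Gphn (SE 0.14), -0.08 for Gabarapl1 (SE 0.13) and -0.07 for Gabrg3 (SE 0.13). Aldh5a1, Slc6a11 and Slc12a2 had differences of 0.45, -0.36 and 0.42 with SEs of 0.34, 0.43 and 0.56. Gabrg1 and Gabrq, both scarce, had SEs of 1.27 and 1.32 and could not be placed on either side.

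**Figure D3:**
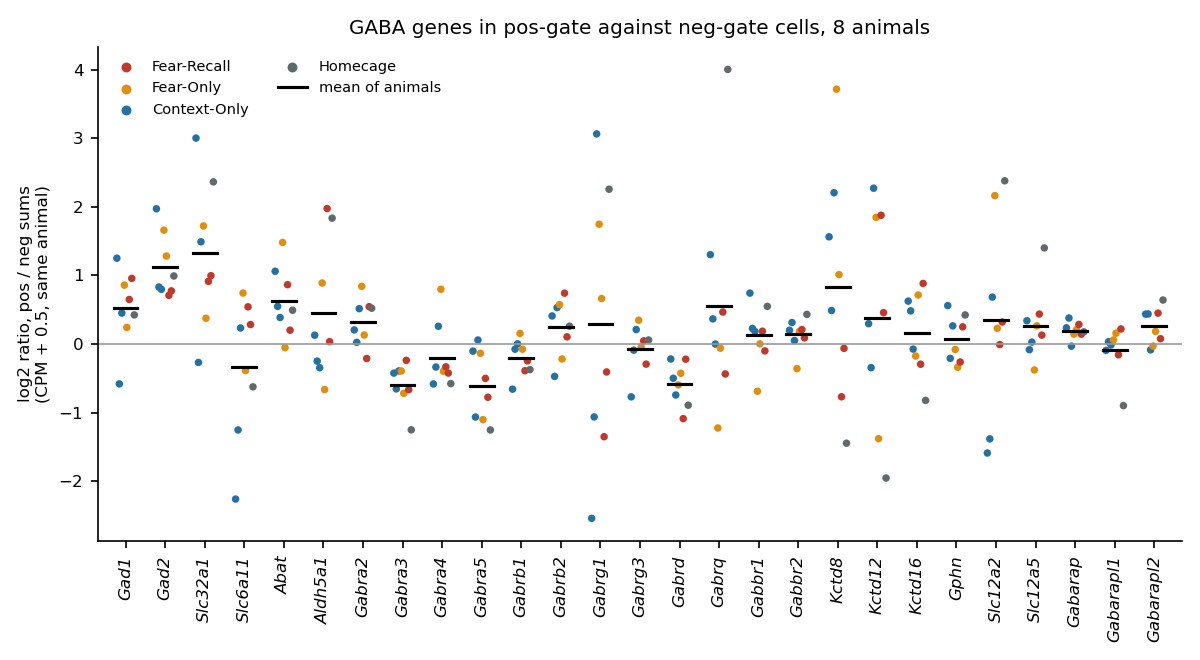
Log2 ratio of pos to neg level in the same animal (y axis, CPM plus 0.5) for 27 genes (x axis), one point per animal (8 animals, coloured by condition) with the mean. Every Gad2 point lies above 0 and every Gabrd and Gabra3 point lies below it.

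Within excitatory cells alone, no listed gene differed detectably between gates. In 8 animals, 0 of 24 genes passed edgeR's quasi-likelihood test at an adjusted p of 0.05, against 0.0298% of 16783 genes (5 genes). At an unadjusted p of 0.05 the counts were 2 of 24 and 7.17% of all genes, and DESeq2 and limma also called 0 of the listed genes. The 3 of smallest p were Gabbr2 (0.34, SE 0.12, adjusted p 0.620, 164 against 129 CPM, higher in 7 of 8), Gabra2 (0.30, SE 0.13, 0.688) and Gabra3 (-0.40, SE 0.20, 0.704, 26.4 against 34.4 CPM). Gad1, Gad2 and Slc32a1 were below the filter on low counts, at means of 0.27, 0.23 and 0.01 CPM in pos and 0.80, 2.15 and 0.03 CPM in neg sums. The neg means rested largely on the highest animal, at 6.01, 13.8 and 0.26 CPM, against neg medians of 0.025, 0.005 and 0.0 CPM. Pos was higher in 6, 5 and 2 animals and lower in 2, 2 and 1. Gabrd stood at 47.1 ± 4.73 CPM in the pos sums against 56.7 ± 11.6 in the neg sums, and Gabra5 at 86.1 ± 29.4 against 103 ± 38.9.

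Within inhibitory cells the synthesis genes showed no shared shift, and Gabrd and Gabra5 kept the direction seen in all cells. The comparison had 7 animals, as Fear-Only 2 had 8 neg inhibitory cells, and neg sums held 10 to 39 cells. By edgeR's quasi-likelihood test, 0 of 27 genes passed, against 0.0% of 14308 genes, with 3 of 27 and 9.81% of all genes at an unadjusted p of 0.05. The Gad2 level was 894 ± 65.6 CPM for pos against 772 ± 155 CPM for neg sums (log2 difference 0.24, SE 0.15, adjusted p 0.644 by edgeR, higher in 6 of 7). Gad1 was at 948 ± 442 and 1170.5 ± 440 (-0.34, SE 0.18, 0.588, higher in 2 of 7), and Slc32a1 at 31.3 ± 20.1 and 19.4 ± 6.68 (0.55, SE 0.43, 0.742, higher in 5 of 7). The 2 decarboxylases therefore had differences of opposite sign, neither past the threshold.

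For Gabrd, inhibitory neg sums held 29.1, 36.9 and 72.3 CPM in Context-Only 2, 3 and 4, 72.1 in Fear-Only 3, 110 in Fear-Recall 2, 120.5 in Fear-Recall 3 and 54.1 in Homecage 2. The pos sums of the same animals, in that order, held 26.9, 24.3, 33.0, 35.04, 13.3, 44.8 and 27.9 CPM. Pos was lower in all 7, by -1.17 on the log2 scale (SE 0.33, adjusted p 0.379 by edgeR), and the ranges overlapped. Gabra5 was lower in all 7 as well, at 10.5 ± 10.6 against 45.2 ± 35.4 CPM (-3.04, SE 0.99, adjusted p 0.395), with a pos range of 0.03 to 27 and a neg range of 4.99 to 95.7. Gabra3 was lower in 6 of 7 (-1.04, SE 0.46, adjusted p 0.498). DESeq2 called Gabra5 and Gabrd here (adjusted p 0.00149 and 0.0211) and 371 genes in all.

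The subclass makeup of inhibitory cells moved with the gate as given above, and pooled levels by subclass and gate stand beside these results. Gabrd was at 164 CPM in 32 neg Lamp5-like cells and 39.6 in 40 pos ones, at 152.004 in 29 neg and 30.9 in 70 pos Sst-like cells, and at 14.5 in 75 neg and 6.77 in 464 pos Vip-like cells. Gabra5 was at 142.6 against 38.2 CPM in Lamp5-like, 148.1 against 8.03 in Htr3a-led (26 and 92 cells) and 44.7 against 19.8 in Sst-like cells, but at 5.15 against 11.8 in Vip-like cells, neg first. Gabrd was thus lower among pos cells in each of these 3 subclasses, and Gabra5 in 3 of 4. These pools hold few cells and were not tested. Gabrd by gate is not given here for Htr3a-led or Pvalb-like cells, nor Gabra5 for Pvalb-like cells. Pvalb-like cells held the most Gabrd when pooled, so the 3 subclasses do not stand for all inhibitory cells.

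**Figure D4:**
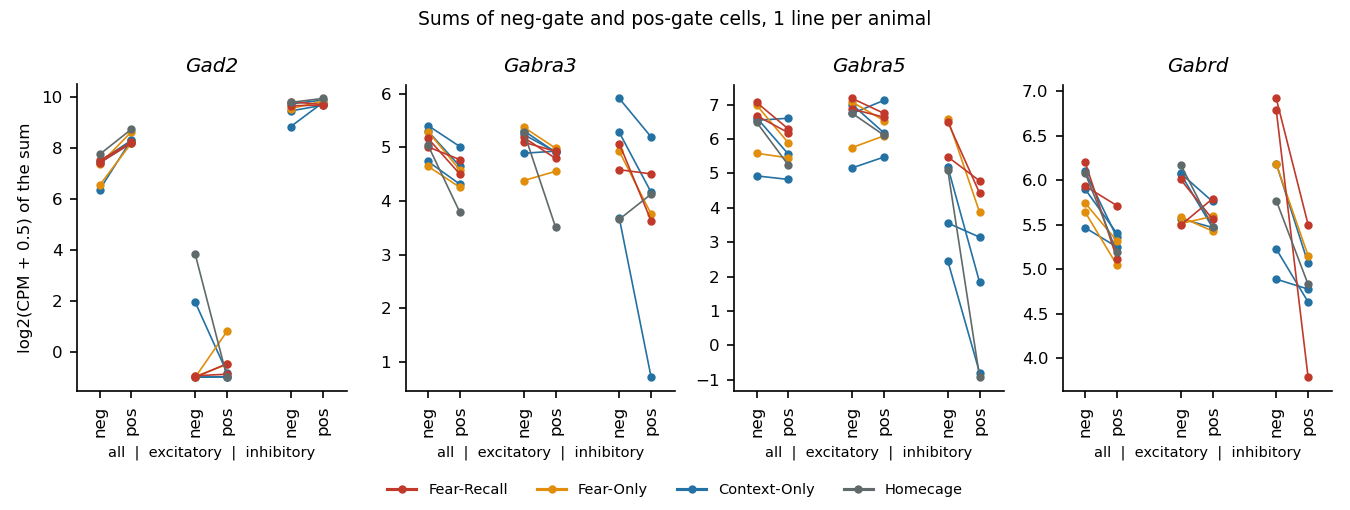
Level (y axis, log2 of CPM plus 0.5) in neg and pos sums of each animal, joined by a line, for Gad2, Gabra3, Gabra5 and Gabrd in all, excitatory and inhibitory cells. Gad2 rises from neg to pos in every animal in all cells and is at most 13.8 CPM in excitatory sums (Homecage 2, neg), and the Gabrd and Gabra5 values of inhibitory sums are lower at pos in all 7 animals.

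Whether the gate difference depended on recall was asked by an interaction of gate with Fear-Recall against the other 3 conditions in the same 16 sums. By edgeR, 0 of 27 genes passed, against 0.0% of 17752 genes, with 0 of 27 and 0.653% at an unadjusted p of 0.05, and DESeq2 and limma called 0 of the 27. The 3 of smallest p were Gad2 (-0.51, SE 0.34), Kctd8 (-2.13, SE 1.51) and Slc6a11 (1.12, SE 0.95), each with an adjusted p of 1.0. With 2 Fear-Recall animals, the Gad2 interval of about 2 SE on either side still holds a difference the size of the gate effect itself.

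The conditions were compared in 3 sets of sums: pos cells of any class (8 animals), excitatory cells of any gate (19 animals) and inhibitory cells of any gate (17 animals). No listed gene passed in any of 15 comparisons by edgeR's quasi-likelihood test, nor by DESeq2 or limma. All genes gave 0.0% in each comparison, of 20381, 18923 and 17481 tested. At an unadjusted p of 0.05 there was 1 of 26 listed genes in excitatory Fear-Recall against Homecage (8.54% of all genes). In inhibitory sums there were, of 27, 1 in Fear-Recall against Homecage (8.17%), 3 in Context-Only against Homecage (5.52%) and 1 in Fear-Only against Context-Only (3.75%). The other comparisons had 0, against 1.26% to 6.93% of all genes. Sums of any gate mix pos, neg and ungated cells in different parts in different animals, and comparisons with the same control animals are not independent of each other.

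Gad1 in inhibitory cells spread widely inside each condition. It was at 2516, 1172, 1144, 1862 and 1770 CPM in Fear-Recall 1 to 5, at 2605, 517, 905 and 1158 in Fear-Only 1, 2, 3 and 5, at 586, 548, 1747, 1479 and 765 in Context-Only 2, 3, 4, 5 and 5b, and at 737, 464 and 1817 in Homecage 2, 3 and 5. The conditions overlapped. Fear-Recall against Context-Only gave a log2 difference of 0.72 (SE 0.45, adjusted p 0.923 by edgeR). Gad2 was more even, at 834 ± 330 CPM in Fear-Recall, 694 ± 108.95 in Fear-Only, 663 ± 232.2 in Context-Only and 722 ± 210 in Homecage. In pos cells, Gad1 was at 420, 425 and 433 CPM in the 3 Fear-Recall animals, 187.3 and 319 in the 2 Fear-Only animals and 186.8, 227.1 and 547 in the 3 Context-Only animals (Fear-Recall against Fear-Only 0.75, SE 0.47, adjusted p 1.0 by edgeR). Slc32a1 was at 16.8 ± 6.24, 13.7 ± 6.17, 26.6 ± 17.01 and 27.2 ± 10.9 CPM in inhibitory sums of Fear-Recall, Fear-Only, Context-Only and Homecage.

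Kctd12 in inhibitory cells had the smallest unadjusted p of any listed gene between conditions. It was at 124.2, 17.6 and 75.0 CPM in Homecage 2, 3 and 5, at 10.2, 25.4, 19.1, 16.7 and 25.7 in Context-Only 2, 3, 4, 5 and 5b, at 36.8, 42.5, 14.4, 28.4 and 25.5 in Fear-Recall 1 to 5, and at 21.9, 12.3, 58.8 and 47.9 in Fear-Only 1, 2, 3 and 5. Homecage 2 and 5 were high and Homecage 3 lay among the others. Context-Only against Homecage gave -1.90 on the log2 scale (SE 0.55, unadjusted p 0.00275, adjusted p 0.877 by edgeR) and Fear-Recall against Homecage -1.29 (SE 0.55, unadjusted p 0.0296, adjusted p 0.606).

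Gabra5 in inhibitory cells was low in Context-Only, at 0.84, 8.50, 10.8, 6.92 and 21.1 CPM in animals 2, 3, 4, 5 and 5b. Fear-Recall 1 to 5 held 24.3, 29.5, 33.0, 29.3 and 16.8 CPM, Fear-Only 1, 2, 3 and 5 held 39.7, 9.39, 44.4 and 30.3, and Homecage 2, 3 and 5 held 11.4, 2.25 and 87.1. Fear-Recall and Context-Only overlapped through one animal each. The log2 difference was 1.68 for Fear-Only against Context-Only (SE 0.79, unadjusted p 0.0479, adjusted p 1.0 by edgeR), 1.47 for Fear-Recall against Context-Only (SE 0.76, adjusted p 0.920) and -1.80 for Context-Only against Homecage (SE 0.84, unadjusted p 0.0458, adjusted p 0.877). Without Homecage 5 the last became 0.50. In excitatory cells Gabra5 was at 137.7 ± 32.5 CPM in Fear-Recall, 142.3 ± 89.1 in Fear-Only, 91.8 ± 37.8 in Context-Only and 92.1 ± 30.4 in Homecage, with differences of 0.58 (SE 0.37) and 0.63 (SE 0.37) for Fear-Recall and Fear-Only against Context-Only.

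Among other genes of inhibitory sums, Gabra3, Gabarap and Gabrq had conditions that did not overlap, without passing. The share of all genes with such gaps was not counted, so the gaps are description only. Gabrq, close to the detection limit, was at 1.51 to 11.1 CPM in Homecage and at most 1.47 CPM in the other conditions. Gabra3 was at 14.6, 15.2 and 7.7 CPM in Homecage 2, 3 and 5, below all Fear-Recall animals (15.5 to 41.1) and all Fear-Only animals, with log2 differences of 1.25 (SE 0.65, adjusted p 0.606 by edgeR) and 1.35 (SE 0.67, adjusted p 0.888). Gabarap was at 350.4, 447 and 365 CPM in Homecage against 202.03 to 341 in Fear-Recall (-0.60, SE 0.30, adjusted p 0.606). The genes named next, apart from Gabarap, overlapped between all conditions. Gabbr1 was at 155 ± 48.5 CPM in Context-Only and 100.2 ± 16.8 in Homecage (0.63, SE 0.28, adjusted p 0.877). Slc32a1 had -0.95 (SE 0.48) and Slc12a2 -1.45 (SE 0.85) for Fear-Only against Context-Only, and Slc32a1 had -0.98 (SE 0.53) and Kctd12 -1.04 (SE 0.58) for Fear-Only against Homecage. Fear-Recall against Fear-Only gave Slc6a11 1.33 (SE 0.79), Gabra4 0.59 (SE 0.49) and Gabarap -0.34 (SE 0.28), and Fear-Recall against Context-Only gave Gabbr1 -0.40 (SE 0.24). Their adjusted p by edgeR ran from 0.888 to 1.0.

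In excitatory cells the condition differences were no firmer. Abat was at 54.2, 17.9, 19.4, 22.7 and 14.9 CPM in Fear-Recall 1 to 5 and at 24.6, 11.6, 12.2 and 11.3 in Homecage 2 to 5, a difference of 0.79 (SE 0.38, unadjusted p 0.0498, adjusted p 0.579 by edgeR), and Fear-Only against Homecage gave 0.72 (SE 0.38, adjusted p 0.709). Slc12a5 was at 135 ± 38.4 CPM in Fear-Recall, 133.9 ± 40.6 in Fear-Only, 173.1 ± 31.6 in Context-Only and 180 ± 62.05 in Homecage. Its differences were -0.35 (SE 0.25) and -0.37 (SE 0.25) for Fear-Recall and Fear-Only against Context-Only and -0.43 (SE 0.27) for Fear-Only against Homecage. Kctd12 had 0.82 (SE 0.62) for Fear-Recall against Context-Only and -1.33 (SE 0.66) for Context-Only against Homecage, Slc6a11 -0.56 (SE 0.45) for the latter, Gabarap -0.44 (SE 0.27) for Fear-Recall against Homecage and Gabarapl2 -0.26 (SE 0.28) for Fear-Recall against Fear-Only. Gad1, Gad2 and Gabrq also appeared among the smallest p values of excitatory sums, at levels near 0. Gad2, for example, was at 8.20 CPM in Homecage 2 and 0.00 in Homecage 3, 4 and 5, so its fitted differences of -4.04 and -2.91 for Fear-Only and Context-Only against Homecage rested on 1 animal and have no bound.

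In pos cells the 3 genes of smallest p were Gabarapl2 (-0.56, SE 0.34), Gabarap (-0.48, SE 0.34) and Gabbr1 (-0.40, SE 0.25) for Fear-Recall against Context-Only, each with an adjusted p of 0.970 by edgeR. They were Gad1, Gabra5 (0.70, SE 0.48) and Gabra3 (0.49, SE 0.35) for Fear-Recall against Fear-Only. For Fear-Only against Context-Only they were Gabra2 (0.67, SE 0.33), Gabbr1 (-0.58, SE 0.29) and Slc32a1 (-0.70, SE 0.65), with adjusted p of 1.0. Gabbr1 was at 105 and 116 CPM in the 2 Fear-Only animals and at 126 to 198 CPM in the 3 Context-Only animals. Groups of 2 and 3 animals limit what these comparisons can show.

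**Figure D5:**
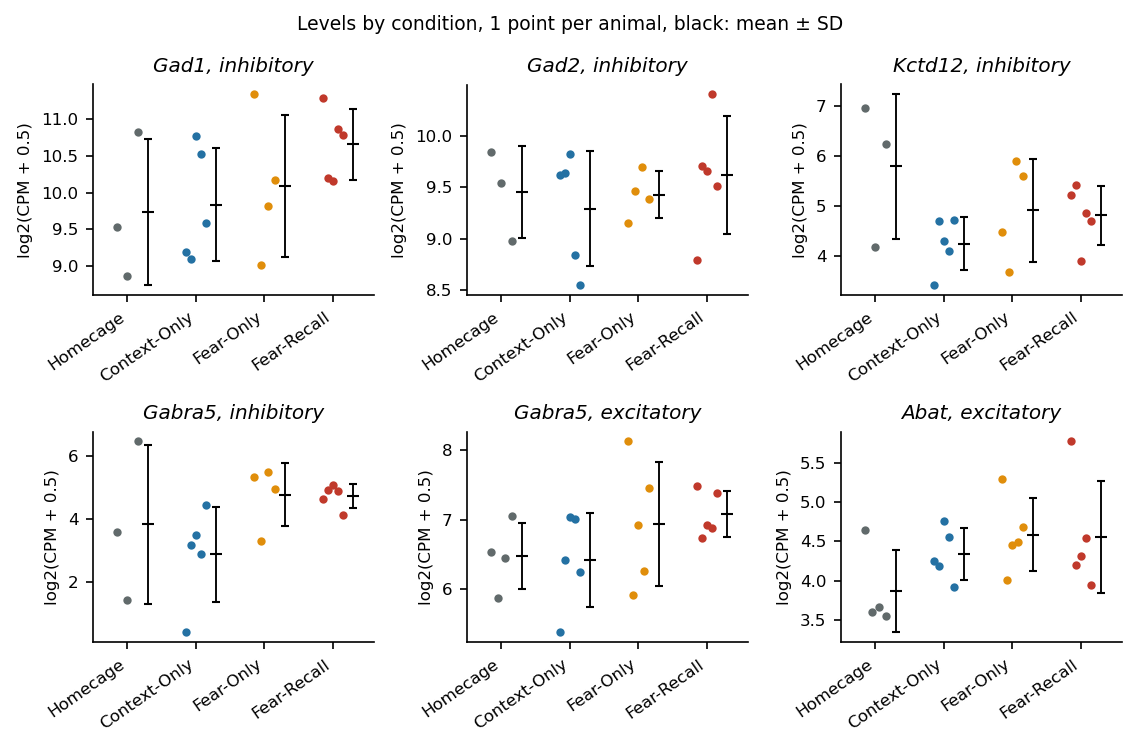
Level (y axis, log2 of CPM plus 0.5) by condition, one point per animal with the mean and SD, for Gad1, Gad2, Kctd12 and Gabra5 in inhibitory sums and Gabra5 and Abat in excitatory sums. The conditions overlap in each panel; Homecage 2 and 5 hold the highest Kctd12 values (124.2 and 75.0 CPM).

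Other genes of GABA metabolism, receptor assembly and chloride regulation were taken from a list of 36, of which 29 are rows of the table. None passed edgeR's quasi-likelihood test in any of the 19 comparisons, with 25 tested in each gate comparison, 26 in excitatory sums and 28 in pos and inhibitory sums. At an unadjusted p of 0.05 there were 3 of 25 in all cells by gate, 4 of 25 in excitatory and 1 of 25 in inhibitory cells, against 10.6%, 7.17% and 9.81% of all genes. The 2 of smallest p by gate in all cells were Glul, glutamine synthetase (0.34, adjusted p 0.277 by edgeR), and Nsf, which drives vesicle fusion (-0.23, adjusted p 0.424). In inhibitory cells Nsf differed by -0.37 (adjusted p 0.555 by edgeR). Between conditions the smallest unadjusted p of the list was that of Trak1, chosen here after its value was seen (inhibitory Fear-Recall against Fear-Only, 1.18, SE 0.39, adjusted p 1.0 by edgeR).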

How the data were processed

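Single cells were prepared with papain and sequenced as Smart-seq2 libraries, per the labels' protocols. The authors deposited whole-number counts of reads per gene and cell. Per the submitters' processing notes, Bowtie 0.12.2 and the builds mm8 and mm10 were used, without roles. The sources used here name neither the counting tool nor its strand setting. The reporter row was left out, which left 23354 genes, and 0 columns were unused. Cells were sorted singly, so no doublet caller was run.

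Cells were clustered with scanpy 1.11.5 and leidenalg 0.10.2 (2000 variable genes, 30 principal components, 15 neighbours, resolution 1) under Python 3.11.15, with the listed genes left out of the clustering and of the class markers. Counts were summed per animal, gate and class where at least 10 cells were present, and tested with edgeR 4.0.16 in R 4.3.3. The fit used TMM scaling, filterByExpr (minimum count 10, minimum total 15), the quasi-likelihood test and Benjamini-Hochberg adjustment over all genes at 0.05, all two-sided. The gate fits had the animal as a block. Fitted differences are log2 with SEs, and plotted ratios used a pseudocount of 0.5 CPM. The scripts were tested on simulated data.

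Genes, lists and tests were chosen with earlier results of these data known. Levels are given for all listed genes and fold changes for all of them in the gate comparison of all cells. Elsewhere they are given for those past the threshold or the 3 of smallest p, with Gad1, Gad2 and Slc32a1 added in the class-wise gate comparisons. Of the 36 further pathway genes, counts and the 2 of smallest p by gate are given, apart from some that are not reported here. Positions and exon lengths are those of the same symbol in GENCODE vM21 (GRCm38) and promoters those of RefSeq on GRCm38.p6.

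In the pos fit, animals with the same number deviated together (correlations 0.137 to 0.359 in 7 of 7 pairs, against a median of -0.143 for different numbers). They were therefore taken as paired in an alternative fit, from the data and not from the labels. Deviations from a condition's mean cancel out within that condition. The 7 pairs are thus not independent of each other, and the negative median for different numbers is partly forced. The pos differences, SEs and adjusted p given above come from the fit without this pairing. The fit with that replicate block called 0 listed genes, as without it. Alternatives were DESeq2 1.42.0, limma 3.58.1 with equal weight per cell, RLE factors, no filter, 20 cells per sum, resolution 2, leaving out the low-gene clusters or 1 animal, single classes, thinning and, chosen after seeing the data, edgeR's bias-adjusted dispersions. Where an arm was left with 1 sum, that sum was assumed to vary like the other groups.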

Additional observations from a re-analysis of the deposited data

Results flagged for a closer look

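Of 233 groups of 4 to 10 animals, 25 held an animal standing far from the others. For normally distributed values the rule flags about 1 in 20 groups (11.7 here). That rate does not hold for groups with most animals near the detection limit, several of which were flagged. The counts of 25 and 11.7 therefore cannot be compared. The values below are given with the nearest other animal of the group, and none was explained further.

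Homecage 2 supplied several of them. Its pos minus neg log2 difference in all cells was -0.898 for Gabarapl1 (nearest other -0.157) and 1.4 for Slc12a5 (0.437), and in excitatory cells -1.78 for Gabra3 (-0.405). Among Homecage excitatory sums it held 24.6 CPM of Abat (12.2), 4.03 CPM of Gad1 (0) and 8.20 CPM of Gad2 (0). In inhibitory cells, the Gad2 gate difference of Context-Only 2 was 0.938 (0.292).

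Synthesis genes in excitatory sums were also uneven elsewhere. Gad1 was at 1.64 CPM in Context-Only 5b (0.057) and 0.269 CPM in Fear-Recall 2 (0.0642), and Gad2 at 1.22 CPM in Context-Only 2 (0.137) and 0.462 CPM in Fear-Only 3 (0.102). In upper-layer-like sums, Context-Only 2 held 0.498 CPM of Gad1 (0), 11.7 CPM of Gad2 (0) and 0.569 CPM of Kctd12 (7.42). Gad2 was at 0.932 CPM in the layer 6 intratelencephalic-like sum of Fear-Only 2 (0).

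The others concerned single animals and genes. In inhibitory sums, Gabra3 was at 2.84 CPM in Context-Only 2 (19.4) and 66.0 CPM in Fear-Only 1 (22.4). In excitatory sums, Gabarap was at 155.8 CPM in Fear-Recall 4 (225), Slc12a5 at 273 CPM in Homecage 4 (156.6) and Gabrq at 1.30 CPM in Homecage 5 (0.0082). In Sst-like sums, Gabra5 was at 0.999 CPM in Homecage 3 (14.2) and Gabrb2 at 0 CPM in Fear-Only 5 (6.50). In layer 6 intratelencephalic-like sums, Fear-Recall 2 held 0.676 CPM of Gabrg1 (0.027) and 4.28 CPM of Gabrq (0). Slc12a2 was at 0.347 CPM in the layer 5-like sum of Fear-Only 3 (3.23).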

How the results depend on the processing

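A listed gene was called under any setting in 2 of the 19 comparisons, and the others stood at 0 throughout. By gate in all cells, the count was unchanged in 11 recomputations and moved in 5, to 6 genes by DESeq2, 4 by limma with equal weight per cell and, over animals left out, 0 to 1 (0 without Fear-Only 3, Fear-Recall 2 or Fear-Recall 3). In inhibitory cells it moved to 2 by DESeq2. Gad2 kept its direction. By edgeR its difference was 0.89 without the low-gene clusters (adjusted p 0.0330) and 1.01 to 1.19 with one animal left out. With no replicate block it was 1.08 (adjusted p 0.0339 by edgeR, 19 genes called against 51). Limma gave 1.68, a difference in the mean log2 level of single cells and so on another scale. All genes called by gate in all cells numbered 627 by DESeq2, 242 by limma, 164 with bias-adjusted dispersions, 17 without the low-gene clusters and 1 to 32 with one animal left out. With the animal number as a replicate block, 0 listed genes passed between conditions, as without it. Same-numbered animals correlated above 0.1 in 23 of 28 excitatory and 14 of 23 inhibitory pairs, and not in the rest. Their median correlations were 0.186 and 0.116, against -0.0596 and -0.0518 for different numbers. The negative medians are partly forced, because deviations cancel out within a condition. The main fits of those sums, like the main pos fit, had no such block. Their SEs therefore do not allow for what same-numbered animals share.

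Signs that turned belonged to genes that had not passed, and the cause was not tested. By gate in all cells, limma, where the median of all genes lay at -0.118, gave Aldh5a1 -0.07, Gabrb2 -0.26, Gabrq -0.01, Gabbr1 -0.26, Gabbr2 -0.35, Kctd16 -0.10, Gphn -0.26, Slc12a2 -0.14, Slc12a5 -0.24 and Gabarap -0.19. Leaving out the low-gene clusters gave Gabrb2 -0.34, Gabrq -0.40, Gphn -0.03 and Gabarapl1 0.00, and no replicate block gave Kctd12 -0.58. Between conditions, limma gave Gabbr1 0.04 and Gad1 -0.37 in pos Fear-Recall against Context-Only and Fear-Only, Slc32a1 0.00 in pos Fear-Only against Context-Only and Slc12a5 0.30 in excitatory Fear-Recall against Context-Only. In inhibitory sums it gave Kctd12 0.21 and Gabarap 0.29 for Fear-Recall against Homecage and Gabbr1 0.29 against Context-Only. Pos excitatory cells alone gave Gad1 -0.55 for Fear-Recall against Fear-Only. Without the low-gene clusters, Fear-Only against Context-Only gave Slc32a1 0.09 in pos and Gabrq 0.07 in excitatory sums.

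With one animal left out, log2 differences by gate ran from -0.12 to 0.04 for Gabrg3, -0.35 to 0.94 for Gabrg1, -0.05 to 1.23 for Gabrq and -0.13 to 0.03 for Gabarapl1. Fear-Only against Context-Only ran from -1.04 to 0.31 for Slc32a1 in pos sums and -2.38 to 0.08 for Gabrq in excitatory sums. Against Homecage, excitatory Gad1 ran from -5.60 to 6.14 for Fear-Recall, excitatory Gad2 from -5.88 to 6.92 for Fear-Only and -5.78 to 8.07 for Context-Only, with the highest values without Homecage 2. Inhibitory Gabra5 ran from -2.35 to 0.50 for Context-Only against Homecage, the latter without Homecage 5.

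Depth limits genes near 0, such as Gabrq, Gabrg1 and Gad1 and Gad2 in excitatory sums, and the neg inhibitory sums of 10 to 39 cells limit the class-wise gate comparison. PCR reads carry no molecular identifiers, so shares of cells cover counting error only.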
